A study of Mus musculus with 7 samples.

Results

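The cadherin superfamily was measured here through 65 genes, of 19938 genes with a named probe set on the arrays. They are the genes whose symbol is Cdh with a number, starts with Pcdh, or is Celsr1 to Celsr3, Fat1 to Fat4, Dchs1 or Dchs2, each represented by a probe set that carries no other gene symbol, and by the one with the highest mean where there were several (83 probe sets in all). They comprised 5 type I and 13 type II classical cadherins, 5 other cadherins, 22 protocadherins of the clustered beta group, 4 delta-1 and 5 delta-2 protocadherins, 3 other protocadherins, 3 Celsr genes and 5 Fat or Dachsous genes. The alpha cluster had a probe set that carries 14 symbols, so it is no member, and the gamma cluster and Dchs2 were not analysed here. The rule reads symbols and mean levels over all arrays, not differences between the groups.

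Cells came from the cerebral cortex of C57BL/6 mouse embryos. Constructs that also carried green fluorescent protein were electroporated on embryonic day 13, and fluorescent cells were sorted 24 h later, at embryonic day 14. The 4 control arrays are labelled wild type, without a statement of the construct they received, and the 3 knockdown arrays carry a construct that lowers Trnp1, a nuclear protein of cortical progenitors. All are labelled biological replicates, with no word on the number of embryos behind an array or on separate electroporations, so p-values measure the spread between these samples only. Electroporation reaches only a fraction of the cells of the cortex.

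Cadherins are transmembrane proteins that bind each other between cells in the presence of calcium. Classical cadherins hold the apical junctions of radial glia together through catenins and actin, and type II cadherins mark regions and layers of the developing brain in distinct combinations. Protocadherins serve recognition between neurons, the clustered ones through a choice of promoters that gives single neurons different sets. Celsr, Fat and Dachsous proteins are giant cadherins of planar polarity and tissue growth.

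Trnp1 (Entrez 69539) read lower on all knockdown arrays than on all control arrays, with log2 levels of 5.13 ± 0.117 (SD, n = 4) and 4.73 ± 0.159 (SD, n = 3). The 7 arrays have 35 possible splits into groups of 4 and 3. An exact permutation test (two-sided) over these splits gave p = 0.0286, which is the smallest value this design allows. Groups without overlap in this direction were found for 3.07% of all genes. By limma the Trnp1 difference was -0.40, with an adjusted p over all genes of 0.825. Trnp1 thus did not pass the test that was used for the members. Of the marker lists, radial glia (12 of 12 genes measured) had a mean log2 level of 7.99 to 8.66 on control and 8.12 to 8.51 on knockdown arrays, and young neurons (11 of 12) one of 8.87 to 9.30 and 8.40 to 9.20, so genes of both cell classes of the labelled tissue were well read. Markers of other cells differed between single arrays. Endothelial markers (12 of 12 measured) averaged 4.64 to 6.75 on control and 5.17 to 7.19 on knockdown arrays, choroid plexus and hem markers (7 of 8) 3.70 to 6.19 and 3.62 to 5.66, and microglial markers (10 of 10) 5.87 to 8.62 and 6.69 to 7.96. Markers of GABA neurons (7 of 8) averaged 4.14 to 4.47 on control and 4.59 to 6.71 on knockdown arrays, a mean without overlap that was highest on knockdown replicate 2. Of these 7 genes only 3 (Dlx5, Dlx6 and Gad2) had groups that did not overlap, as for 2.59% of all genes in that direction. The groups overlapped for Dlx1, Dlx2, Lhx6 and Gad1. Glycolysis and hypoxia genes (12 of 12) averaged 6.48 to 6.86 and 6.82 to 8.10, highest on knockdown replicate 1. RMA values on the log2 scale have no true zero, so no marker can be said to be absent.

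No cadherin or protocadherin gene passed the test between knockdown and control cells. By limma with Benjamini-Hochberg adjustment over all genes, 0 of the 65 members passed an adjusted p of 0.05 (percent called over all genes: 0), and the smallest adjusted p of a member was 0.825. An unadjusted p under 0.05 was found for 4 members, 6.15% of the 65, against 5.81% of all genes. The 3 higher ones were Cdh6, Cdh11 and Pcdh17 (4.62% against a background of 2.2%), and the lower one was Cdh8 (1.54% against 3.61%). All knockdown arrays lay above all control arrays for 2 members, Cdh6 and Cdh11 (3.08% against 2.59%), and below them for 2, Cdh2 and Pcdhb4 (3.08% against 3.07%). The share in either direction and the shares without overlap lie near the background, so they are not a result about the family.

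The median log2 difference of the members, knockdown minus control, was 0.046, against -0.001 over all genes. It depended on the scaling: 37 of 65 members were higher as deposited, 19 with the array medians set equal, which moves the median of all genes to -0.107, and 30 after a further quantile normalization. Better read members and genes in general had medians of opposite sign. Of the 18 members with a mean level over 6, 12 were higher (66.7%), with a median of 0.13, against 33.6% of the 6979 genes at that level, with a median of -0.12. At an unadjusted p under 0.05 by limma, 3 of the 18 were higher (16.7% against 1.89%) and 1 was lower (5.56% against 8.27%). The level is the mean over all arrays, and Cdh11 and Cdh5 passed 6 only through their knockdown arrays. Their control means were 5.93 and 5.63. Both count among the 12 higher members, and Cdh11 among the 3, so these shares partly follow from the filter. This is a description of 18 genes without a test, and differences among them ran from -0.88 to 1.69. The 35 members with a mean level of 4 or less had a median of 0.017, against 0.031 for all genes at that level, and differences from -0.33 to 0.54. Near background RMA values are compressed. The same value on 3 or more arrays was found for 13 of the 65 members and for 7.22% of all genes. These 13 members had mean levels of 2.69 to 4.36. Levels of different probe sets do not compare as amounts of RNA, and they are used below only to follow a gene across arrays. In these sorted pools of cells, fewer cells of a type and less RNA per cell cannot be told apart.

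**Figure D1:**
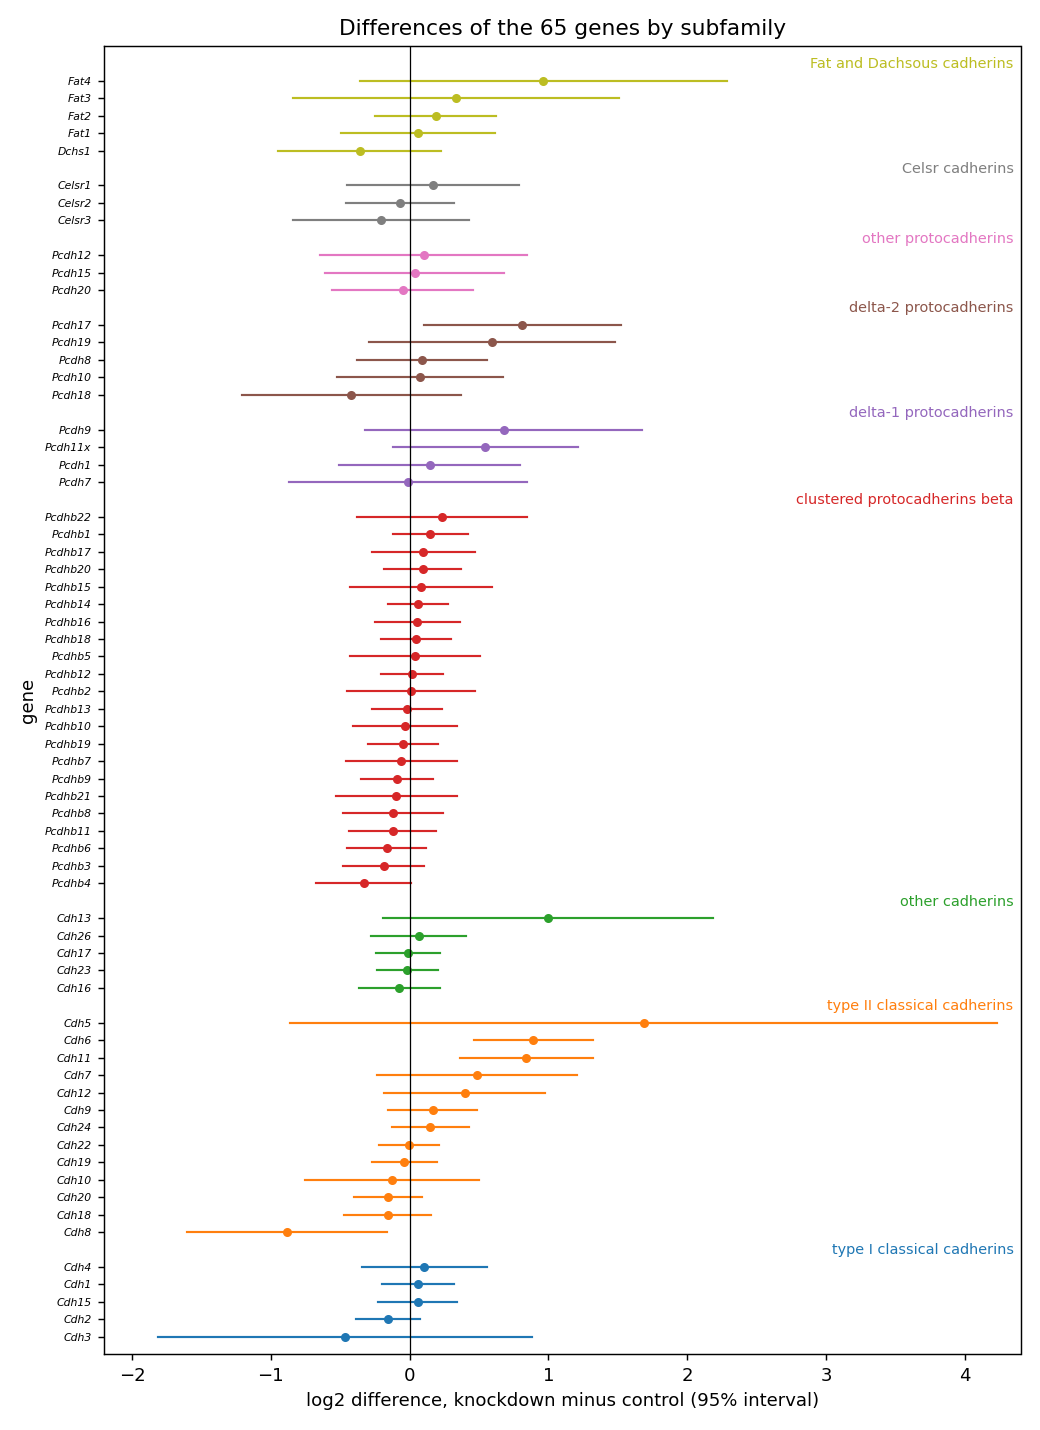
Log2 difference between knockdown and control (x axis) for each of the 65 genes (y axis), coloured by subfamily, with limma's 95% interval as a line. Only the intervals of Cdh6, Cdh11, Pcdh17 and Cdh8 leave out 0, before any adjustment for the number of genes, and that of Cdh5 is the widest.

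Promoter sequences are shown for the 3 of these 4 members that had an entry in the RefSeq promoter table of assembly GRCm38.p6, in which 28 of the 65 members were found. The windows run from 250 bases before to 50 after the gene's start, 5′ to 3′ on the gene's strand, at chr15:13173626-13173925 (minus strand) for Cdh6, chr14:84443313-84443612 (plus strand) for Pcdh17 and chr8:99416422-99416721 (minus strand) for Cdh8. Capitals mark the E-box CANNTG, the core that basic helix-loop-helix factors recognise, which reads the same on both strands and was the only motif searched.
Cdh6: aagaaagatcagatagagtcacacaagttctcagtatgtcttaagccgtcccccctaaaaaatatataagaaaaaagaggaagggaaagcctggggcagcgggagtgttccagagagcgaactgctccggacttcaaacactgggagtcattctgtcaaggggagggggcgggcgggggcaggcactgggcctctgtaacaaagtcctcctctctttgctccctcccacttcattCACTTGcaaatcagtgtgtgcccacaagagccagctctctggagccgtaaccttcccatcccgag
Pcdh17: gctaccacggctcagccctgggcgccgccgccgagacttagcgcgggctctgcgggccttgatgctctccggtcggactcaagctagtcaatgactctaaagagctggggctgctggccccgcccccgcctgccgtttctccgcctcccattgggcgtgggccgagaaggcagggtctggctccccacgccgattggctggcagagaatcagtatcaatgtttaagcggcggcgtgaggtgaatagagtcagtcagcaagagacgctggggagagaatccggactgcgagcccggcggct
Cdh8: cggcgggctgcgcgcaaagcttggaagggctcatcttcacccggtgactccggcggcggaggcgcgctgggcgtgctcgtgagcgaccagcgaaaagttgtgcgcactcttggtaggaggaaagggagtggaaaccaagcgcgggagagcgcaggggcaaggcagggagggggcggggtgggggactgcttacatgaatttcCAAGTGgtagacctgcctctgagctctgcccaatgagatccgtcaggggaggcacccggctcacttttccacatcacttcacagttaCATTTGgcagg
The E-box occurred 1 time in the Cdh6 window, 2 times in that of Cdh8 and 0 times in that of Pcdh17, while 72.3% of all 32851 windows of this length hold at least 1. The windows of Pcdh17 and Cdh8 held 26 and 21 CG dinucleotides and that of Cdh6 held 8, against a median of 7 over all windows. The Pcdh17 and Cdh8 windows, from genes with differences of opposite sign, both held at least 21, as did 24.8% of all windows.

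Type I classical cadherins are the adhesion proteins of the adherens junction, and N-cadherin, encoded by Cdh2 (Entrez 12558), is the one of the neuroepithelium. Cdh2 read 9.83, 9.71, 9.72 and 9.67 on the control arrays and 9.62, 9.62 and 9.49 on the knockdown arrays. The groups did not overlap, yet the difference was small, -0.15 (SE 0.10, 95% interval -0.38 to 0.08, limma's unadjusted p = 0.157). The interval includes differences of either sign. The value depended on the scaling: it was -0.261 with the array medians set equal, where the unadjusted p was under 0.05, and -0.043 and -0.027 under quantile and cyclic loess scaling.

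R-cadherin, encoded by Cdh4 (Entrez 12561), overlapped between the groups, with 8.01, 8.30, 7.50 and 7.83 on control and 7.86, 8.08 and 8.10 on knockdown arrays (difference 0.11, SE 0.19). It was -0.0005 with the array medians set equal and -0.032 without control replicate 3. P-cadherin, encoded by Cdh3 (Entrez 12560), read 5.98 on control replicate 4 and 3.57 to 3.90 on all other arrays. The 7 choroid plexus and hem markers averaged 1.65 above their control mean on the same array and 1.12 above it on knockdown replicate 2, and -0.92 to -0.07 on the others. On control replicate 4, knockdown replicate 2 and control replicate 3, the choroid plexus gene Folr1 read 7.86, 5.26 and 4.14, Otx2 read 8.18, 7.30 and 3.41, and Ttr read 12.55, 11.98 and 9.86. The rest of the list was less uniform on control replicate 4. Rspo3 (4.55) was the highest of the controls there, Kl (3.41) and Wnt8b (3.31) lay among the other controls, and Wnt3a (3.45) was the lowest. The part of choroid plexus cells in the Cdh3 signal was not tested. The Cdh3 difference of -0.47 (SE 0.58) rests on control replicate 4, and it was 0.11 without that array. E-cadherin (Cdh1) and M-cadherin (Cdh15), cadherins of epithelia and muscle, read between 3.36 and 3.87 on every array.

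Type II classical cadherins held the members with the smallest p. Cdh6 (Entrez 12563), a cadherin that marks boundaries and regions of the early forebrain, read 6.51, 6.59, 6.05 and 6.33 on control arrays and 7.53, 6.98 and 7.28 on knockdown arrays. Every knockdown array lay above every control array, and the difference was 0.89 (SE 0.18, 95% interval 0.46 to 1.32), or 1.85-fold. Limma's unadjusted p was 0.00159 and its adjusted p over all genes 0.825. Among the other 19 settings the difference of Cdh6 ranged from 0.74 to 1.03, always with an unadjusted p under 0.05 and never with an adjusted p under it. The knockdown arrays had the same order in Cdh6 as in glycolysis and hypoxia genes, which averaged 1.48, 0.20 and 0.82 above the control mean on replicates 1, 2 and 3, and the part of that state in the difference was not tested.

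Cdh11 (Entrez 12552), a cadherin of mesenchyme and of neural tissue, behaved likewise. It read 6.25, 6.03, 5.71 and 5.74 on control arrays and 6.67, 6.49 and 7.16 on knockdown arrays, so the groups did not overlap. The difference was 0.84 (SE 0.20, 95% interval 0.36 to 1.32), or 1.79-fold, with an unadjusted p of 0.00411 by limma, and it ranged from 0.58 to 0.98 among the other settings. Meningeal and fibroblast markers (8 of 8 measured) averaged 4.02 to 4.16 on control and 4.14 to 4.63 on knockdown arrays and were highest on knockdown replicate 2, where Cdh11 was the lowest of the knockdown arrays. Single genes of that list went different ways. Lum (4.34), Dcn (6.38) and Col1a2 (4.92) were highest on knockdown replicate 2. Col1a1 (5.19) and Pdgfra (4.26) were highest on knockdown replicate 3, as was Cdh11. Col3a1 was highest on knockdown replicate 1, Foxc1 on control replicate 4 and Twist1 on control replicate 1. The part of other cells in the Cdh11 difference was not tested.

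Cdh11 also shares 3 probe sets with 6820431F20Rik and 2610005L07Rik, which RefSeq lists as transcribed pseudogenes. These probe sets are no members. They too read higher on knockdown arrays, by 0.50 (SE 0.15), 0.46 (SE 0.16) and 0.54 (SE 0.14). The groups did not overlap in any of them, as for 2.59% of all genes in that direction. The 3 probe sets carry the same symbols, so they do not count as separate genes. Their array values ran from 8.111 to 9.603, above those of Cdh11's own probe set, but such levels do not compare as amounts of RNA. Whether Cdh11's own probe set picks up signal from the pseudogenes was not tested.

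Cdh8 (Entrez 12564), a cadherin of cortical and striatal neurons and their circuits, was the member with the clearest lower reading. It read 7.35, 7.58, 7.36 and 7.87 on control arrays and 6.01, 7.37 and 6.59 on knockdown arrays. Knockdown replicates 1 and 3 lay below all controls, and replicate 2 lay among them. The difference was -0.88 (SE 0.31, 95% interval -1.60 to -0.16, unadjusted p = 0.0228 by limma), and leaving out knockdown replicate 1 or 2 gave -0.56 or -1.24. Young neuron markers averaged -0.63, -0.40 and 0.18 against the control mean on knockdown replicates 1, 2 and 3, and glycolysis and hypoxia genes 1.48, 0.20 and 0.82. Cdh8 was thus lowest on the array where hypoxia genes were highest and young neuron markers lowest, and the part of either in the difference was not tested.

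**Figure D2:**
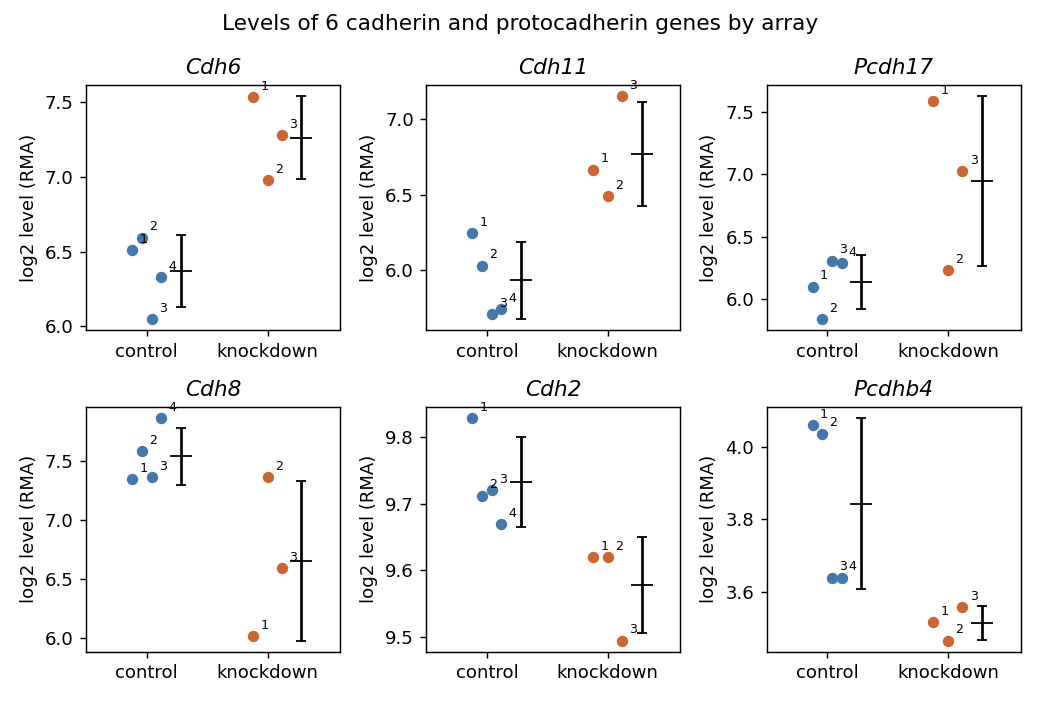
Log2 levels (y axis) of the 6 genes with an unadjusted p under 0.05 or with groups that do not overlap, for control (blue) and knockdown (orange) arrays, numbered by replicate, with the mean and SD beside the points in black. Cdh6 and Cdh11 are higher on all knockdown arrays, whereas Pcdh17 and Cdh8 on knockdown replicate 2 lie within the range of the controls. The y axes differ between genes.

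VE-cadherin, encoded by Cdh5 (Entrez 12562), is the cadherin of endothelial junctions. It had the largest spread of all members, a pooled SD of 1.72 within groups where the median member had 0.261. It read 5.06, 5.27, 3.83 and 8.37 on control arrays and 8.54, 7.53 and 5.89 on knockdown arrays. The difference of 1.69 (SE 1.09, 95% interval -0.86 to 4.23) was within this spread. The 12 endothelial markers averaged 1.52 above the control mean on control replicate 4, and 1.95, 0.88 and -0.07 on knockdown replicates 1, 2 and 3. Markers of mural cells, the outer cells of small vessels (8 of 8 measured), averaged 4.29 to 5.18 on control and 4.51 to 5.70 on knockdown arrays. Cdh5 and the endothelial markers were thus high on the same 3 arrays, 1 of them a control. The part of vessel cells in the Cdh5 difference was not tested. Without control replicate 4 the Cdh5 difference was 2.60, and without knockdown replicate 1 it was 1.08. Pcdh12, a protocadherin of endothelium, read 5.52 on control replicate 4 and 4.999 on knockdown replicate 1, its highest values, and 4.24 to 4.66 elsewhere.

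**Figure D3:**
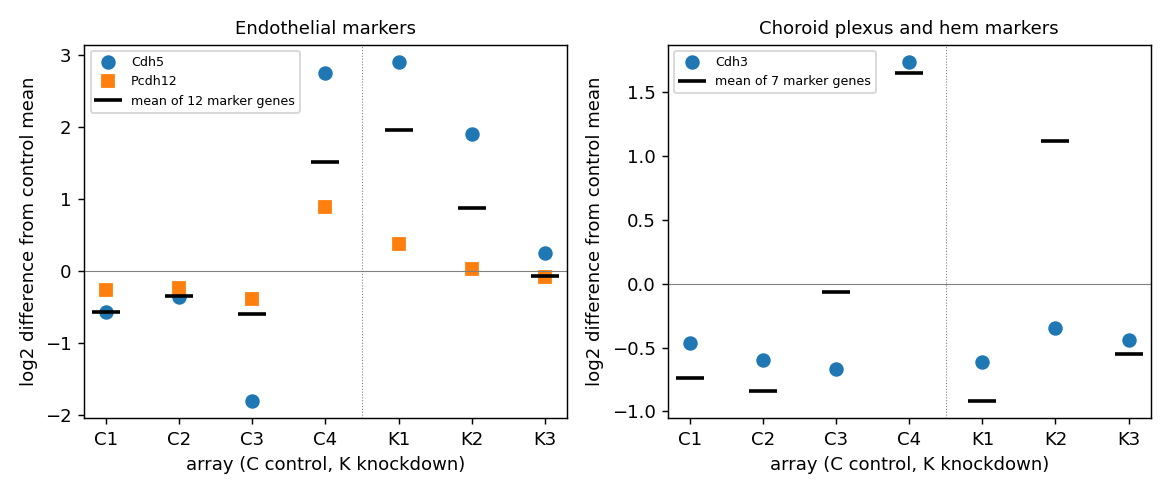
Difference of a gene from its control mean in log2 units (y axis) on each array (x axis, C control and K knockdown with the replicate number), for Cdh5 and Pcdh12 beside the mean of 12 endothelial markers (left) and for Cdh3 beside the mean of 7 choroid plexus and hem markers (right). Cdh5 follows the endothelial markers over C4, K1 and K2, and Cdh3 is high on C4, the array on which the choroid plexus and hem markers are highest. These markers are also high on K2, where Cdh3 is not.

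The other type II cadherins differed little. Cdh7 (Entrez 241201) and Cdh12 (Entrez 215654) read 3.54 to 3.75 and 2.76 to 3.20 on all arrays but knockdown replicate 3, where they read 4.93 and 3.93. Their differences of 0.48 (SE 0.31) and 0.40 (SE 0.25) were 0.061 and 0.092 without that array. The remaining 7 genes (Cdh9, Cdh10, Cdh18, Cdh19, Cdh20, Cdh22 and Cdh24) had differences from -0.16 to 0.17 and unadjusted p-values of at least 0.176 by limma. Of these, Cdh24 was the steadiest of the better read ones in its brightest probe set, with 7.05 ± 0.134 (SD, n = 4) and 7.19 ± 0.110 (SD, n = 3), while Cdh10 had 5.87 ± 0.230 (SD, n = 4) and 5.75 ± 0.571 (SD, n = 3). The other, dimmer probe set of Cdh24 read 5.171 to 6.295 on control and 5.444 to 6.094 on knockdown arrays. Its difference had the other sign (-0.09, SE 0.28).

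Among the other cadherins, T-cadherin, encoded by Cdh13 (Entrez 12554), lacks a cytoplasmic tail and sits in the membrane through a lipid anchor. It read 4.04, 4.49, 4.98 and 4.79 on control and 5.26, 4.61 and 6.85 on knockdown arrays. The high value of knockdown replicate 3 carried much of the difference of 1.00 (SE 0.51, unadjusted p = 0.0878 by limma), which was 0.36 without it. Cdh16, Cdh17, Cdh23 and Cdh26, cadherins of epithelia and, for Cdh23, of sensory hair cells, read 3.20 to 4.44 with differences from -0.074 to 0.066.

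All 22 measured protocadherins of the beta cluster came from dim probe sets, with array values between 2.68 and 4.85. These single-exon genes lie side by side and are much alike in sequence, so 1 transcript may be read by several of their probe sets. Of the 22, 11 were higher and 11 lower in knockdown cells, with a median difference of -0.0043. Pcdhb4 (Entrez 93875) read 4.06, 4.04, 3.64 and 3.64 on control and 3.52, 3.47 and 3.56 on knockdown arrays. The groups did not overlap by a narrow margin, and the difference was -0.33 (SE 0.15, 95% interval -0.67 to 0.01). The other 21 genes differed by -0.19 to 0.23. The probe set of the alpha cluster, which reads many of its transcripts together, read 3.79, 3.70, 3.85 and 3.79 on control and 4.09, 3.70 and 4.27 on knockdown arrays, with overlap (difference 0.24, SE 0.15).

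Delta-1 protocadherins are long-tailed protocadherins of neurons. Pcdh9 (Entrez 211712) read 5.12, 6.55, 6.70 and 5.99 on control and 6.14, 6.92 and 7.26 on knockdown arrays, a difference of 0.68 (SE 0.43) with overlapping groups. Its other probe set differed by 0.78, so both probe sets gave the same sign, and without control replicate 1, the lowest array, the difference was 0.36. Pcdh11x (Entrez 245578) read 3.37 to 3.73 on all arrays but knockdown replicate 3, which read 4.73 (difference 0.54, SE 0.28, and 0.16 without that array). Pcdh7 stood at 6.82 on control replicate 1 and at 5.50 to 6.37 on the others, and Pcdh1 read 3.53 to 4.59.

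Delta-2 protocadherins regulate migration, axon growth and synapses, in part through the actin regulators of the WAVE complex. Pcdh17 (Entrez 219228) read 6.10, 5.84, 6.31 and 6.29 on control arrays and 7.58, 6.23 and 7.02 on knockdown arrays. Knockdown replicates 1 and 3 lay above all controls and replicate 2 among them, as for Cdh8 in the other direction. The difference was 0.81 (SE 0.30, 95% interval 0.10 to 1.52, unadjusted p = 0.0303 by limma), with 0.49 without knockdown replicate 1 and 1.17 without knockdown replicate 2. Replicates 1 and 3 were also the arrays with the most signal of glycolysis and hypoxia genes, whose part in the difference was not tested.

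Pcdh19 (Entrez 279653), an X-linked protocadherin of neural progenitors and neurons, read 5.367, 4.729, 4.196 and 4.382 on control and 4.97, 4.79 and 6.04 on knockdown arrays (difference 0.60, SE 0.38, and 0.21 without knockdown replicate 3). Pcdh18 (Entrez 73173) read 6.79, 7.70, 7.86 and 7.56 on control and 7.30, 7.47 and 6.40 on knockdown arrays (difference -0.42, SE 0.34, and -0.092 without knockdown replicate 3). The groups overlapped for both genes. Pcdh10 read 6.97 to 7.98 and Pcdh8 5.29 to 6.09, and the groups overlapped for both. Outside the delta groups, Pcdh15 and Pcdh20 read 3.62 to 4.92.

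Celsr genes encode the receptors at the core of planar cell polarity. Celsr1 (Entrez 12614), the Celsr gene of progenitors, read 8.55, 8.63, 8.47 and 7.91 on control and 9.07, 8.10 and 8.51 on knockdown arrays (0.17, SE 0.26). Celsr2 (Entrez 53883) differed by -0.07 (SE 0.17) and Celsr3 (Entrez 107934), the Celsr gene of neurons, by -0.21 (SE 0.27). Celsr3 was -0.052 without control replicate 1 and -0.448 without knockdown replicate 3. The groups overlapped for all of them. The sign of Celsr1 was the other one without knockdown replicate 1 (-0.084), and that of Celsr2 without knockdown replicate 2 (0.073), without control replicate 1 (0.012) and under another scaling of the arrays, by quantiles (0.031) or by cyclic loess (0.063).

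Fat4 and Dchs1 encode a receptor and ligand pair that restrains progenitor proliferation in the cortex. Fat4 (Entrez 329628) read 7.21, 7.03, 6.63 and 5.55 on control arrays and 6.88, 7.03 and 8.79 on knockdown arrays. Knockdown replicates 1 and 2 lay within the range of the controls and replicate 3 above it, and the difference of 0.96 (SE 0.56, 95% interval -0.36 to 2.28) was 0.35 without that array. Its ligand gene Dchs1 (Entrez 233651) read 8.57, 8.03, 7.79 and 7.99 on control and 7.24, 7.93 and 8.03 on knockdown arrays (-0.36, SE 0.25, and -0.11 without knockdown replicate 1). The array with the most Fat4 signal was thus not one with little Dchs1 signal. Fat1 read 6.41 to 7.31 and Fat2 3.48 to 4.33, with overlapping groups.

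Fat3 (Entrez 270120), which shapes neurites, had 15 probe sets. The brightest read 7.87, 6.54, 7.47 and 7.05 on control and 6.80, 7.18 and 8.73 on knockdown arrays, a difference of 0.33 (SE 0.50) that was -0.25 without knockdown replicate 3. Over its 15 probe sets the differences ran from -0.80 to 1.31, with 12 higher and 3 lower, and in 10 of them knockdown replicate 3 was the highest array. Probe sets of this gene are not replicates of it.

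**Figure D4:**
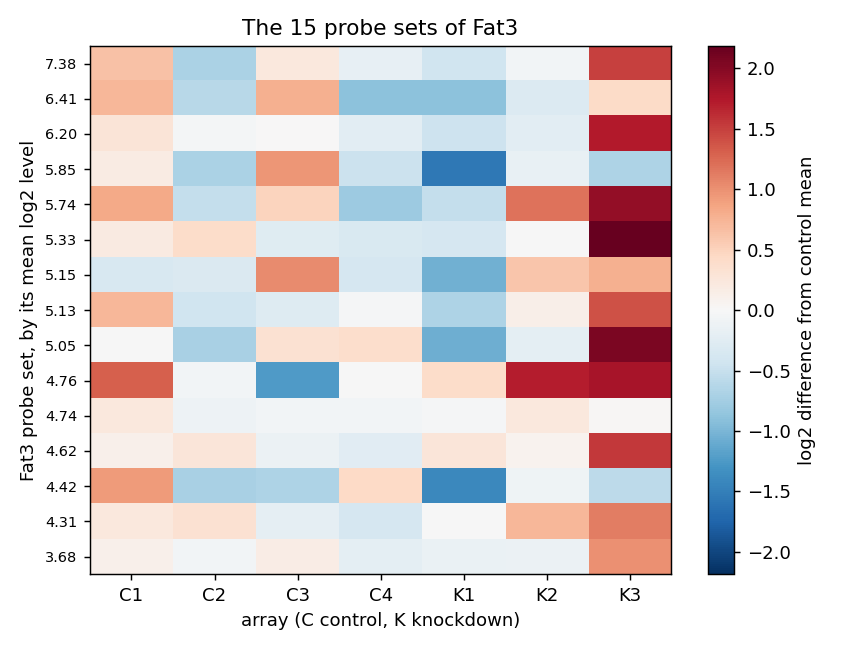
Difference from the control mean in log2 units (colour) for the 15 probe sets of Fat3 (rows, labelled by their mean log2 level) on each array (columns, C control and K knockdown). In 10 of the 15 rows K3 is the highest array, and the other knockdown arrays show both signs.

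Several members stood highest on knockdown replicate 3. On that array 8 members (Cdh7, Cdh12, Cdh13, Fat3, Fat4, Pcdh11x, Pcdh15 and Pcdh19) read over 0.5 log2 units above every other array, 12.3% of the 65 against 2.9% of all genes, and 0 members read that far below, against 2.5% of all genes. The limit of 0.5 was chosen after the values were seen. Cdh13 and Fat4 stood farthest above the next array, by 1.59 and 1.58. The array also had the highest median over all probe sets, 4.61 against 4.398 to 4.51, and its median over the members was 4.14 against 3.64 to 3.96. Cajal-Retzius markers (8 of 8 measured) averaged 4.81 to 4.97 on control and 4.86 to 5.19 on knockdown arrays, highest on knockdown replicate 3. Single genes of that list went different ways on this array. Reln read 7.68 there and 4.72 to 5.16 elsewhere, and Calb2 was also highest there (3.72). Lhx5 was at its lowest (3.42), and Nhlh2 (4.34) lay below all controls. Of the young neuron markers, Snap25 (8.14), Stmn2 (9.25), Gap43 (9.05), Map2 (10.135) and Tbr1 (10.545) were highest on that array. Neurod6 (10.358) and Neurod2 (8.435) were at their lowest there, and Dcx (9.629) and Tubb3 (10.382) lay below all controls. The list as a whole averaged 9.20 there, within the range of the controls. The part of these cell types in the members' values was not tested. Without the array, Cdh6 and Cdh11 still had an unadjusted p under 0.05, and Cdh8 and Pcdh17 did not although their differences were about as large (-0.85 and 0.77).

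**Figure D5:**
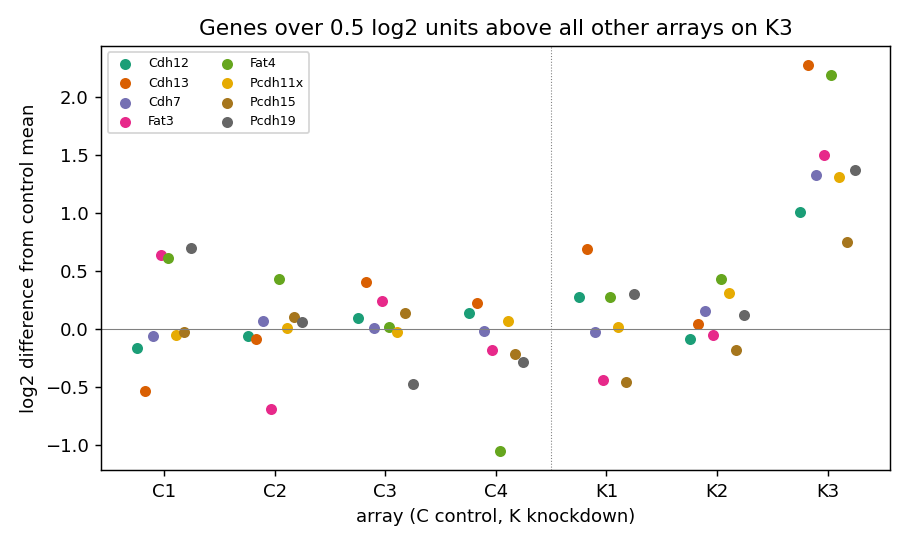
Difference from the control mean in log2 units (y axis) for the 8 genes that read over 0.5 log2 units above every other array on knockdown replicate 3, on each array (x axis, C control and K knockdown). On K3 all 8 lie above their values on every other array, and on K1 and K2 they lie on both sides of 0.

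Partners of cadherins were read from lists, and 0 of their genes passed over all genes by limma. Among 13 catenins and actin linkers 8 were higher and 5 lower, with 1 gene, higher, at an unadjusted p under 0.05, which 2.2% of all genes had in that direction. This was Vcl, which encodes vinculin, a protein that reinforces junctions under tension (0.68, SE 0.25). Afdn, which encodes the junction protein afadin, differed by 0.38 (SE 0.16) and its groups did not overlap, as for 2.59% of all genes in that direction, while the beta-catenin gene Ctnnb1 read 10.59 ± 0.0706 (SD, n = 4) and 10.53 ± 0.0770 (SD, n = 3). Afdn differed by 0.19 without knockdown replicate 3.

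In the list of Rap1 and Reelin signalling, which acts on N-cadherin in migrating neurons, 7 of 12 genes were higher and 1 of them, the Reelin receptor gene Vldlr, had an unadjusted p under 0.05 (1.07, SE 0.42, and 0.71 without control replicate 1). In the lists of planar polarity partners (6 of 13 higher), cytoplasmic partners of protocadherins (7 of 12 higher), proteases that cleave cadherins (2 of 8 higher) and factors of protocadherin promoter choice (3 of 12 higher), 0 genes had an unadjusted p under 0.05. Over all genes 5.81% had one, and 49.8% were higher in knockdown cells. Most genes of these lists had a mean level over 6, and of all genes at that level only 33.6% were higher. At that level 1.89% were higher and 8.27% lower at an unadjusted p under 0.05 by limma.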

How the data were processed

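Total RNA of the sorted cells was amplified and put on 7 Affymetrix arrays, 1 for each sample, per the labels. The deposited values are log2 signals on which the authors used RMA and Expression Console 1.2, going by the submitters' processing notes. RMA subtracts background and quantile-normalizes probes, which can hide a shift of most genes. The build behind the annotation, not given in the sources used here, was not needed. The table held 35556 probe sets, of which 21789 carried 1 symbol, and 21698 of these were matched by Entrez identifier to RefSeq (GRCm38.p6) for names.

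Groups were compared by limma 3.58.1 in R 4.3.3 (lmFit and eBayes without trend, two-sided, 5 residual and 2.36 prior degrees of freedom) over all 19938 genes, with Benjamini-Hochberg adjustment. Depth does not apply to arrays, and their number limits the precision. Fits were tested on simulated data. Replicate numbers were not used as a block: the labels do not say that they pair samples, and deviations of same-numbered arrays correlated by 0.0278, -0.0507 and 0.0716.

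Members, lists and subfamilies were chosen with earlier results of these data known. Named are members with an unadjusted p under 0.05 or without overlap, and in each subfamily up to 4 with the smallest p and up to 4 with the highest level. From each partner list at most 3 genes of smallest p could be named, and Ctnnb1 was added after its values were seen. Alternatives were array weights, a robust prior, an intensity trend, 3 other scalings and filters on the dimmest 25% or 50% of genes. Others were averaging a gene's probe sets, the replicate block, each array left out and an adjusted p under 0.1. Added after the data were seen was control replicate 4 left out together with knockdown replicate 1 or 3. The replicate block used only replicates 1 to 3 of each group, without control replicate 4.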

Additional observations from a re-analysis of the deposited data

Results flagged for a closer look

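For 9 of the 65 members and for 2 of 18 lists, a single control array stood apart from the other 3. The gap, relative to the range of the 4 controls, was beyond Dixon's 95% critical value, which chance gives in about 1 of 20 groups of 4. The share of all genes with such a gap was not computed, so the count is not a result about the family. Control replicate 4 was the highest for Cdh3 (5.98 against 3.57 to 3.78), for Pcdh12 (5.52 against 4.24 to 4.39), for the mean level of the endothelial markers (6.755 against 4.64 to 4.89) and of the mural cell markers (5.18 against 4.295 to 4.398), and the lowest for Pcdhb3 (3.54 against 3.70 to 3.73). Control replicate 1 was the highest for Pcdh7 (6.82 against 5.50 to 5.62), Cdh17 (3.38 against 3.20 to 3.23) and Cdh23 (3.51 against 3.42) and the lowest for Pcdhb1 (3.26 against 3.31). Control replicate 3 was the highest for Cdh20 (4.47 against 4.41) and the lowest for Cdh26 (3.42 against 3.75 to 3.79). In Cdh20, Cdh23 and Pcdhb1 the other 3 controls had identical values, so the gap there is small in absolute terms.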

How the results depend on the processing

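In every setting 0 members passed an adjusted p of 0.05, and 0 passed 0.1 as deposited. The count of members at an unadjusted p under 0.05, 4 as deposited, was 8 with the array medians set equal (8.48% of all genes) and 8 with the replicate block (7.45%), and 2 to 6 with 1 array left out (4.04% to 12.1%), lowest without knockdown replicate 3 (4.74%) and highest without control replicate 4 (6.62%) or knockdown replicate 2 (12.1%). The block setting added Cdh5, Cdh13, Pcdh9 and Pcdh12, all higher. It used only replicates 1 to 3 and thus also left out control replicate 4. Without control replicate 4 and without the block, Cdh5 and Pcdh12 also had an unadjusted p under 0.05 by limma. The members' median difference, 0.046, was -0.060 with the array medians set equal, -0.0099 after a further quantile normalization, 0.106 over the 23 members left without the dimmest 50% of genes, -0.0018 to 0.061 with 1 array left out, and -0.001 when both control replicate 4 and knockdown replicate 3 were left out. Dim members were not tested under the filters, and in the 17 to 19 other settings that tested each member 27 kept their sign and 38 did not. Among the members' single differences given above, signs turned for Cdh3 (0.111 with the replicate block, -0.69 to 0.111 with 1 array left out, 0.185 and 0.098 without control replicate 4 and knockdown replicate 1 or 3 together), Cdh4 (-0.0005 with equal medians, -0.032 to 0.235 with 1 array left out), Celsr1 (-0.084 to 0.40 with 1 array left out, -0.243 without control replicate 4 and knockdown replicate 1 together), Celsr2 (0.031 and 0.063 after quantile or cyclic loess normalization, -0.198 to 0.073 with 1 array left out), Fat3 (-0.247 to 0.72 with 1 array left out, -0.308 without control replicate 4 and knockdown replicate 3 together) and Fat4 (-0.001 in the last of these). The causes were not tested. With 7 arrays, differences of dim probe sets are the least certain.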
